A study of Mus musculus with 4 samples.

Results

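The genes described here encode cytokines and receptors of the common gamma chain family. They were chosen by symbol from the list of 30905 genes in the deposited matrix: the cytokines Il2, Il7 and Il15, and the receptor genes Il2ra, Il2rb, Il2rg, Il7r, Il15ra and Il21r, which makes 9 members, each present under its symbol in 1 line of the list. Expression was measured by single-cell RNA sequencing of mouse hearts that had been transplanted into the abdomen of C57BL/6J recipients and removed on day 5 after the operation. Allogeneic grafts (2 hearts) came from BALB/c donors, labelled Balb/C, and syngeneic grafts (2 hearts) came from C57BL/6J donors. All mice were male and 8 to 10 weeks old, and the labels name no treatment. A graft keeps vessels, stroma and resident leukocytes of the donor while leukocytes of the recipient enter it, and donor and recipient cells were not separated here.

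Cytokines of this family act on lymphocytes through receptors that contain the common gamma chain, which is encoded by Il2rg. Interleukin 2 and interleukin 15 share the beta chain encoded by Il2rb and differ in a private alpha chain, encoded by Il2ra and Il15ra, whereas interleukin 7 and interleukin 21 pair the gamma chain with the products of Il7r and Il21r. Il2rb and Il7r products signal together with the gamma chain through Jak1, Jak3 and Stat5 proteins, and interleukin 15 is presented to neighbouring lymphocytes by cells that hold it on the Il15ra product. Interleukin 7 and interleukin 15 are known as products of stromal and myeloid cells, and interleukin 2 as a product of activated T cells.

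Receptor genes carried most of the differences described here, Il15ra and Il2rg between libraries and Il2ra and Il7r between T cell classes, and the bases before their start sites are shown for that reason. RefSeq promoter windows on GRCm38.p6 were found for 6 of the 9 members, as 7 entries, and the 250 bases before each start were read. Each sequence is written 5′ to 3′ on the strand of its gene, in lower case, and capitals mark a match to a searched motif.
Il15ra, chr2:11705043-11705292, plus strand: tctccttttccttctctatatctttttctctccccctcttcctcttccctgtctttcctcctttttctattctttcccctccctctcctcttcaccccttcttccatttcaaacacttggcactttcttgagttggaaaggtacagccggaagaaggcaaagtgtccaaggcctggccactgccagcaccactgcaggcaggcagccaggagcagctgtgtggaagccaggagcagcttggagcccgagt
Il2rg, chrX:101268256-101268505, minus strand: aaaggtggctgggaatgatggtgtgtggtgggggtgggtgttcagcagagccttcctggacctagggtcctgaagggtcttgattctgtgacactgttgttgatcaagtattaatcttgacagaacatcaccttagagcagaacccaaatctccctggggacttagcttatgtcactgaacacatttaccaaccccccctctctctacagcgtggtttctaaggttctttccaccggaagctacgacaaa
Il2ra, chr2:11642542-11642791, plus strand: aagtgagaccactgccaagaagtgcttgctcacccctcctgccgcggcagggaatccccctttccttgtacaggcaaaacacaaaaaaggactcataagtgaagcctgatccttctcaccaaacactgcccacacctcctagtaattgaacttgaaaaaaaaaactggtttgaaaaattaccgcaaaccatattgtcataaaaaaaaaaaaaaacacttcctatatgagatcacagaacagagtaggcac
Il7r, chr15:9529877-9530126, minus strand: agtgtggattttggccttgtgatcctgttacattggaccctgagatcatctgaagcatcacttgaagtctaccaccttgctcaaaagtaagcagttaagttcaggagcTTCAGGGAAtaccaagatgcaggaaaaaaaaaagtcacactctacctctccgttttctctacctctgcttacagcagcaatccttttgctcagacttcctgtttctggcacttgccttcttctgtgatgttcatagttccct

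A pair of GAAA runs separated by 2 unspecified bases, which is found in interferon-stimulated response elements, and TTCNNNGAA, the core to which Stat proteins bind, were searched on both strands, and the TTCNNNGAA pattern reads the same on both. Of the 7 entries of members, 0 held the GAAA pair and 1 held TTCNNNGAA, against 2.98% and 7.02% of all 32851 promoter windows of the same length. The match was TTCAGGGAA before Il7r, with its first base 142 bases before the start, and it overlapped no GAAA pair. These matches describe letters only, and a window without a match says nothing about binding. Il2 and Il21r also had an entry, and Il15, Il7 and Il2rb had none in the table used. In the gene models of GENCODE M21, Il2ra (2:11642807-11693193, plus strand) and Il15ra (2:11705290-11734317, plus strand) are both on chromosome 2 and on the plus strand. Il2rb (15:78479256-78495271) and Il7r (15:9505788-9530176) are both on chromosome 15 and on the minus strand. The window read for Il7r lies inside this gene model. Its match thus comes before the RefSeq start used here but within the gene by GENCODE.

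The deposited matrix held 53824 cells, of which 42395 were kept after filters and removal of 2231 probable doublets. The suffix of each cell barcode divided them into 4 libraries, numbered 1 to 4, of 96020294, 115162601, 138892048 and 166079145 UMIs (unique molecular identifiers, 1 for each captured transcript). No source used here states which graft gave which suffix, so allogeneic and syngeneic grafts were not compared, and each library is given on its own. Between libraries 308 barcode sequences of 53516 were shared, which touched 616 cells. The libraries differed in make-up: library 4 held 678 of 691 CD8 T-like cells and 5036 of 6421 macrophage-like cells without a finer name, library 2 held 2733 of 3093 granulocyte-like cells, and library 1 held 331 of 381 cardiomyocyte-like cells. Within a broad class the libraries also fell into different clusters. Endothelial-like cells of libraries 1 and 3 were mainly in cluster 1, those of library 2 in clusters 3 and 19 and those of library 4 in cluster 22, whose leading genes were Ubd, Gbp2b and Cxcl9. Macrophage-like cells of libraries 1 and 3 were mainly in cluster 12, those of library 2 in cluster 14 and those of library 4 in clusters 2 and 7. As a whole, macrophage-like cells were 8530 cells. They include the 282 dendritic-like and 140 mature dendritic-like cells, which are also given on their own. Fibroblast-like cells of library 1 were mainly in cluster 9 (1580 of 2173 cells), those of library 3 in cluster 4 (1831 of 2055) and those of library 4 in cluster 23, and granulocyte-like cells of library 2 were mainly in cluster 6 (2060 cells) and those of libraries 1 and 3 in cluster 16. Every comparison of libraries within a class is therefore also a comparison of those clusters.

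Levels are given as CPM, the UMIs of a gene per 1000000 non-mitochondrial UMIs of the cells in a class, with a 95% Poisson interval in brackets, and shares of cells as the percent with at least 1 UMI. These intervals cover counting error only, since each class and library is 1 pooled sample without replicates, and no test between conditions was possible. Where intervals are said to overlap, this does not show that the levels were equal. Reads were counted at the 3′ end of transcripts, so levels are compared between cells for the same gene and not between genes. Share of cells depends on depth, and values after thinning every cell to 1000 UMIs are given where shares are set side by side. Lower RNA per cell and fewer expressing cells within a class cannot be told apart in the CPM values.

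**Figure D1:**
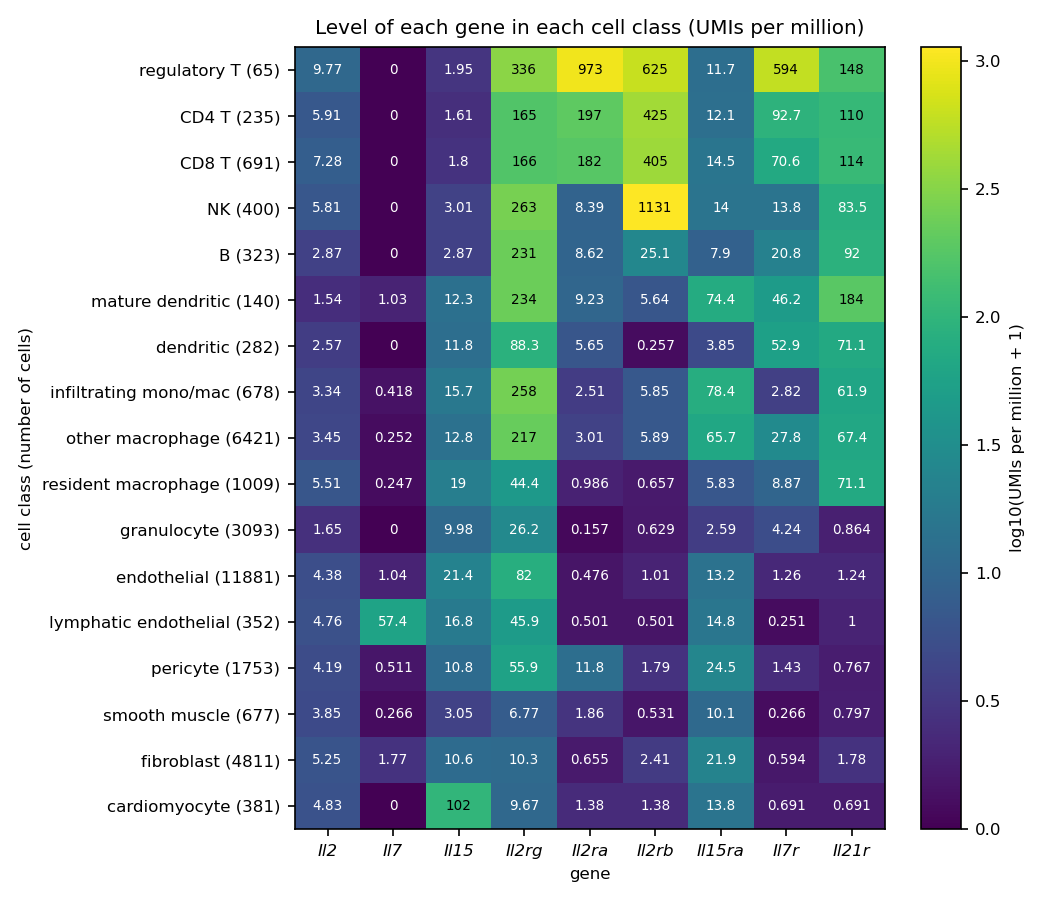
Level of the 9 genes (columns) in each named cell class (lines, with the number of cells), as CPM printed in each square and coloured on a log10 scale. Il2rb was highest in NK-like cells at 1131, Il2ra in regulatory T-like cells at 973, Il7 in lymphatic endothelial-like cells at 57.4, and Il2 stood at similar low values in nearly every class.

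Il2, which encodes the T cell growth factor interleukin 2, was detected at a low level in nearly every class, and somewhat higher in T/NK-like cells. T/NK-like cells held 7.2 CPM (6.19 to 8.32) and all other cells 4.16 CPM (3.97 to 4.37), and these intervals did not overlap. Of the 1851 Il2 UMIs, 9.89% lay in T/NK-like cells, which held 5.97% of all UMIs. The other 90.1% lay outside them, beside 94.03% of all UMIs. CD4 T-like cells had an Il2 UMI in 8.09% of cells and fibroblast-like cells, which are not known to make interleukin 2, in 8.23%, with median depths of 11679 and 14290 UMIs. After thinning, these shares were 0.426% and 0.485%. CD4 T-like cells held 22 Il2 UMIs in all, at 5.91 CPM, and fibroblast-like cells 433, at 5.25 CPM. The share in CD4 T-like cells was thus close to that of fibroblast-like cells and is not read as expression. So few counts cannot tell a low level of expression from background.

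In endothelial-like cells Il2 was 4.54, 4.02, 4.59 and 4.55 CPM in libraries 1 to 4, and in macrophage-like cells 4.0, 2.21, 4.66 and 3.59 CPM. Values above these levels were found in a few T and NK sub-clusters. CD8 T-like sub-cluster 4, led by Ifng, Ccl3 and Xcl1, held 17.6 CPM (12.997 to 23.2), whereas CD8 T-like sub-cluster 1 held 3.24 CPM and sub-cluster 2 held 10.8 CPM. T cells of sub-cluster 7, which came from libraries 1 and 3 and whose leading genes were those of hemoglobin, held 25.9 CPM (15.8 to 40.04) in 143 cells and stayed without a name. NK-like sub-cluster 8, also from libraries 1 and 3, held 13.9 CPM against 3.97 CPM in NK-like sub-cluster 3 of library 4. Regulatory T-like cells gave the highest value among named classes of at least 50 cells, 9.77 CPM, from 5 UMIs, with an interval of 3.17 to 22.8 that overlapped those of CD8 T-like, CD4 T-like and NK-like cells and of fibroblast-like cells.

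Il7, which encodes the survival factor of naive and memory lymphocytes, was concentrated in lymphatic endothelial-like cells. This class was named from Prox1, Lyve1, Mmrn1, Ccl21a, Flt4 and Reln, and held 57.4 CPM (50.2 to 65.3), from 229 of the 582 Il7 UMIs in 352 cells. Library 1 gave 67.1 CPM (55.7 to 80.2) and library 3 gave 49.4 CPM (40.4 to 59.7), and libraries 2 and 4 held 5 and 0 cells of this class. The intervals of both libraries lay far above those of every other class. An Il7 UMI was found in 25.9% of lymphatic endothelial-like cells and 2.68% of fibroblast-like cells, and in 5.16% and 0.0844% of thinned cells.

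Unnamed cluster 18, with Kcna1 and Ngfr among its leading genes, followed with 4.65 CPM (2.80 to 7.27). Fibroblast-like cells held 1.77 CPM (1.49 to 2.08), with 1.88, 1.23 and 2.96 CPM in libraries 1, 3 and 4, and blood vessel endothelial-like cells held 1.04 CPM (0.852 to 1.26). Among T/NK-like cells 1 Il7 UMI was counted, and CD4 T-like, CD8 T-like, NK-like, B-like, granulocyte-like and cardiomyocyte-like cells had 0. A count of 0 allowed up to 0.216 CPM in CD8 T-like cells and 2.07 CPM in cardiomyocyte-like cells. The receptor gene Il7r stood at 0.251 CPM in lymphatic endothelial-like cells, so that the cytokine and its receptor were counted in different cells.

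Il15, which encodes a growth factor of NK and memory CD8 T cells, was found in many classes and at low levels in lymphocytes. Cardiomyocyte-like cells held 102 CPM (85.8 to 119) with a UMI in 29.7% of 381 cells, and 331 of these came from library 1, where the level was 111 CPM. Unnamed cluster 20, which held S100a8, S100a9, Csf3r, Cxcr2 and Mmp9 of the granulocyte markers and came from library 4, had 109 CPM (95.6 to 123), and the intervals of both overlapped. Unnamed cluster 17, with all 7 cardiomyocyte markers but a median depth of 906.5 UMIs, followed with 45.2 CPM (33.7 to 59.5).

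Endothelial-like cells held 21.4 CPM (20.5 to 22.3) and contributed 36.2% of all Il15 UMIs, beside 23.6% of the UMIs of all genes. Their levels were 21.8, 14.3, 18.1 and 63.9 CPM in libraries 1 to 4, so that library 4 (58.6 to 69.5) lay above the other libraries. In library 4 macrophage-like cells held 14.6 CPM and T/NK-like cells 2.23 CPM, both below the endothelial-like value of that library. Macrophage transcripts C1qa, C1qb and C1qc summed to 216 CPM in these endothelial-like cells and Cd3d, Cd3e and Cd3g to 22.8 CPM.

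In macrophage-like cells Il15 was 18.1, 17.2 and 14.6 CPM in libraries 1, 3 and 4 and 1.47 CPM (0.922 to 2.23) in library 2. The low value of library 2 was shared by its resident macrophage-like cells, with 2.03 CPM against 25.5 and 21.2 CPM in libraries 1 and 3. Pericyte-like cells of library 2 also held less, 5.40 CPM against 14.2 and 12.3 CPM, and granulocyte-like cells 7.22 CPM against 28.9 and 38.8 CPM, where Il15 stood at 6.12 CPM in cluster 6, which held most of those of library 2, and at 25.01 CPM in cluster 16, which held most of the others. Of libraries 1 to 3, library 2 was the lowest for Il15 in these classes and in endothelial-like cells, whereas T/NK-like cells held 2.90, 3.99 and 2.28 CPM, from 4, 3 and 2 UMIs. T/NK-like cells of all libraries held 2.32 CPM, with 1.61 in CD4 T-like, 1.80 in CD8 T-like and 3.01 CPM in NK-like cells.

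**Figure D2:**
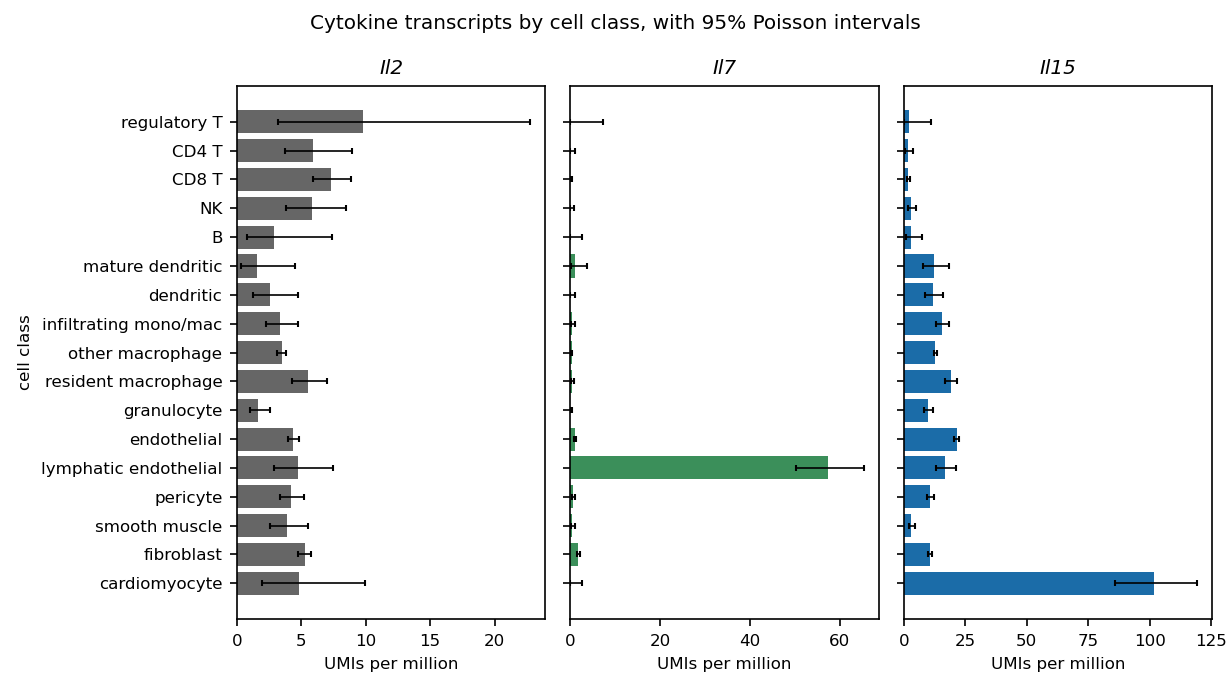
Levels of the cytokine genes Il2, Il7 and Il15 (CPM, bars from 0) in each cell class, with 95% Poisson intervals as lines. Il7 reached 57.4 in lymphatic endothelial-like cells, Il15 reached 102 in cardiomyocyte-like cells, and Il2 stayed under 10 in the named classes.

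Il2rg, which encodes the gamma chain shared by all receptors of the family, was found in leukocytes and in vessel cells. Among named classes of at least 50 cells, regulatory T-like cells held 336 CPM (288 to 390), NK-like cells 263 and infiltrating monocyte- or macrophage-like cells 258 CPM. Mature dendritic-like cells held 234, B-like cells 231, CD8 T-like cells 166 and CD4 T-like cells 165 CPM. The interval of regulatory T-like cells lay above those of NK-like (249 to 279) and infiltrating (248 to 269) cells, which overlapped each other. The order depended on which cells took the name of regulatory T-like cells, whose level fell below both at 127 CPM with doublets kept, 124 CPM without library 3 and 226 CPM in cells gated on Foxp3 and Cd3 UMIs. Macrophage-like cells contributed 59.2% of Il2rg UMIs, endothelial-like cells 19.3% and T/NK-like cells 11.4%.

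Macrophage-like cells held 58.4, 40.9, 54.7 and 263 CPM of Il2rg in libraries 1 to 4, and the interval of library 4 was 259 to 266. Endothelial-like cells held 56.5, 67.1, 87.7 and 190 CPM. Library 4 was highest in both classes. In T/NK-like cells the order differed, with 254, 154, 233 and 188 CPM, and library 4 was not the highest.

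Vessel cells held Il2rg without a matching level of Ptprc, which encodes the leukocyte antigen CD45. In endothelial-like cells Il2rg was 14.7, 4.54, 22.4 and 4.28 UMIs per UMI of Ptprc in libraries 1 to 4, against 0.229 in CD8 T-like cells of library 4. Relative to Cdh5, the gene of the endothelial cadherin, the endothelial-like ratio was 0.0490, 0.0554 and 0.0611 in libraries 1 to 3 and 0.242 in library 4. Pericyte-like cells held 48.5, 49.8 and 55.3 CPM of Il2rg in libraries 1 to 3, beside 694, 682 and 846 CPM of Cdh5, and their ratio of Il2rg to Cdh5 was 0.0699, 0.0730 and 0.0654. Endothelial transcripts were thus found beside Il2rg in pericyte-like cells, and their part in that level was not tested. Fibroblast-like cells held 1.95 and 2.56 CPM in libraries 1 and 3 and 46.6 CPM in library 4. There C1qa, C1qb and C1qc summed to 394 CPM and Il2rg was 0.118 UMIs per C1q UMI. In library 4 this ratio was 0.0383 in macrophage-like cells as a whole. It was 0.208 in infiltrating monocyte- or macrophage-like, 0.265 in mature dendritic-like and 0.982 in T/NK-like cells. The part of leukocyte transcripts in the fibroblast-like level was not tested.

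Il2ra, the alpha chain that gives the interleukin 2 receptor its high affinity, was highest in regulatory T-like cells. This sub-cluster of 65 cells was named from Foxp3, Ctla4, Ikzf2 and Tnfrsf4, and Foxp3, the lineage factor of regulatory T cells, was found in 84.6% of its cells at 537 CPM. Il2ra was 973 CPM (889 to 1062) and was detected in 89.2% of these cells, and the 55 cells of library 4 gave 1077 CPM. The name fell on other cells under some settings: with doublets kept it fell on 95 cells with 292 CPM, and T/NK-like cells gated on a Foxp3 and a Cd3 UMI, chosen as a check after the data were seen, gave 754 CPM in 90 cells.

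CD4 T-like cells held 197 CPM (183 to 212) and CD8 T-like cells 182 CPM (175 to 189), and these intervals overlapped. Within CD8 T-like cells the sub-clusters differed, with 310 CPM in sub-cluster 4 (Ifng, Ccl3, Xcl1), 180 CPM in sub-cluster 1 (Ifng and genes of DNA replication) and 18.8 CPM in sub-cluster 2 (Ly6c2, Dapl1, Gzmk). CD4 T-like sub-clusters 9 and 6 held 264 and 72.5 CPM. NK-like cells held 8.39 CPM (5.97 to 11.5). Gamma-delta T-like cells, 48 in number, held 1.07% of Il2ra UMIs beside 0.0596% of all UMIs. For CD4 T-like cells these shares were 15.1% and 0.873%.

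T/NK-like cells held 40.5, 17.3, 69.6 and 170 CPM of Il2ra in libraries 1 to 4 and contributed 80.9% of its UMIs, and all other cells held 2.32 CPM. Among the latter, pericyte-like cells held 11.8 CPM (10.3 to 13.4). Their level was 30.4 CPM (25.6 to 35.9) in library 1, 3.56 CPM in library 2 and 9.15 CPM in library 3, with an Il2ra UMI in 22.1%, 3.43% and 10.0% of cells and in 4.74%, 1.14% and 1.36% of thinned cells. Cd3d, Cd3e and Cd3g summed to 0.216, 0.395 and 1.22 CPM in the same cells, so that library 1 held 141 Il2ra UMIs and 1 Cd3 UMI, while CD8 T-like cells of library 4 held 0.0878 Il2ra UMIs per Cd3 UMI. Endothelial-like cells held 0.476 CPM and smooth muscle-like cells 1.86 CPM. Pericyte-like cells of all libraries held 4.73% of Il2ra UMIs beside 4.59% of all UMIs. For mature dendritic-like cells these shares were 0.369% and 0.458%, and for B-like cells 0.246% and 0.327%. Unnamed cluster 13, with a median depth of 1219 UMIs and Ccr7, Il4i1 and Xcr1 among its leading genes, held 26.6 CPM (22.6 to 31.0).

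Il2rb, the beta chain shared by the receptors of interleukins 2 and 15, was highest in NK-like cells at 1131 CPM (1101 to 1162), with a UMI in 99.2% of cells. Library 1 gave 1399 CPM and library 4 gave 1078 CPM, and the sub-clusters gave 1143, 1363 and 962 CPM. Regulatory T-like cells held 625 CPM (558 to 697), gamma-delta T-like cells 460 CPM in 48 cells, CD4 T-like cells 425 CPM (405 to 447) and CD8 T-like cells 405 CPM (394 to 415). The last 3 had overlapping intervals. Naive T-like cells, 41 cells of library 4 with Ccr7, Lef1, Tcf7 and Klf2 among their markers, held 26.8 CPM (8.71 to 62.6).

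Among CD8 T-like sub-clusters Il2rb took another order than Il2ra: sub-cluster 2 was highest with 533 CPM, followed by sub-cluster 1 with 415 and sub-cluster 4 with 273 CPM. Across T/NK-like cells the libraries held 902, 108, 616 and 519 CPM. In library 2, 146 of its 163 T/NK-like cells were in unnamed sub-cluster 5, which had 148 cells and was led by S100a8, Retnlg and S100a9. There Lef1 and Tcf7 were at 481 and 345 CPM and Il2rb at 91.4 CPM. The low value of library 2 and that of this sub-cluster cannot be told apart. Library 2 held 0 NK-like cells.

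T/NK-like cells contributed 91.8% of Il2rb UMIs. Outside them, library 4 stood above libraries 1 to 3 in macrophage-like cells (7.2 against 0.769, 0.268 and 0.441 CPM), in endothelial-like cells (7.79 against 0.916, 0.287 and 0.173 CPM) and in fibroblast-like cells (10.2 against 1.03 and 0.460 CPM). Cd3 transcripts moved with it. In library 4, Il2rb was 0.370 UMIs per Cd3d, Cd3e and Cd3g UMI (0.338 to 0.406) in macrophage-like cells, 0.342 (0.254 to 0.456) in endothelial-like cells and 0.293 (0.243 to 0.352) in fibroblast-like cells, beside 0.272 (0.267 to 0.278) in the T/NK-like cells of that library. The ratio in endothelial-like and fibroblast-like cells overlapped that of T/NK-like cells and the ratio in macrophage-like cells was higher.

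**Figure D3:**
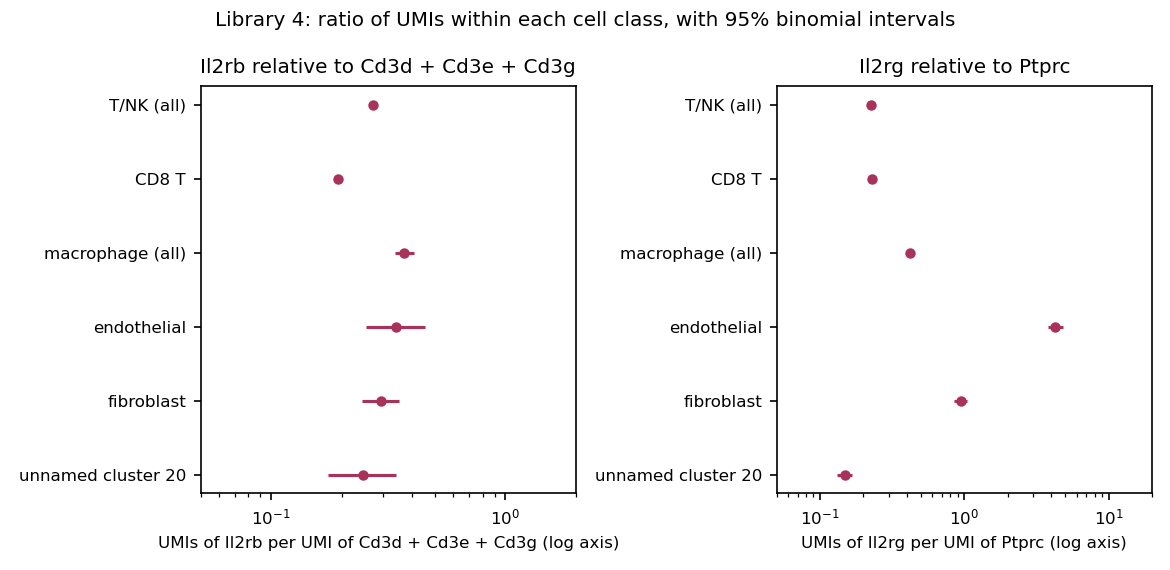
UMIs of Il2rb per Cd3d, Cd3e and Cd3g UMI (left) and of Il2rg per Ptprc UMI (right) in cell classes of library 4, on log axes, with 95% binomial intervals as lines. Il2rb stood at 0.342 per Cd3 UMI in endothelial-like cells and at 0.272 in T/NK-like cells, and Il2rg at 4.28 per Ptprc UMI in endothelial-like cells.

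Il2ra, Il2rb and Il2rg were detected together, as the 3 chains of the high-affinity receptor, in 78.5% of regulatory T-like cells (51 of 65), 48.9% of CD8 T-like cells, 35.3% of CD4 T-like cells and 8.5% of NK-like cells. Median depths were 5807, 14942, 11679 and 9627 UMIs, and the class with the highest share was the shallowest. After thinning the shares were 6.15%, 1.17%, 0.0% and 0.5%. Il2rb with Il2rg, the pair that binds interleukin 2 and interleukin 15 without an alpha chain, was found in 85.0% of NK-like cells, 82.6% of CD8 T-like, 81.5% of regulatory T-like and 79.6% of CD4 T-like cells, and in 18.0%, 6.56%, 12.3% and 6.81% of thinned cells. The product of the shares of the single genes was 71.0% for the 3 chains in regulatory T-like cells and 84.9% for the pair in NK-like cells, both within the interval of the measured share. For the 3 chains in CD8 T-like cells it was 43.0%, below the interval of 45.1 to 52.7% around the measured share. This class pools sub-clusters 1, 2 and 4, whose median depths were 30208, 7091 and 16936.5 UMIs and whose Il2ra levels differed. The part of this pooling in the difference was not tested.

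**Figure D4:**
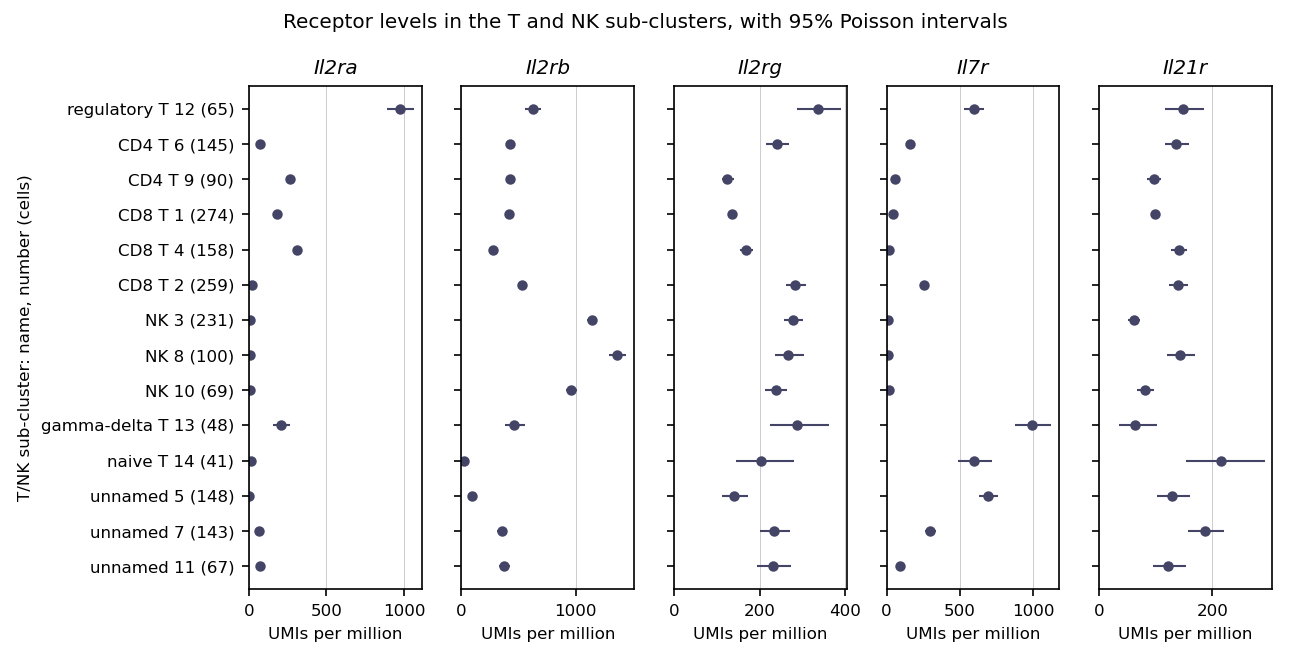
Receptor levels (CPM, horizontal axes from 0) in the T and NK sub-clusters (lines, with name, number and cells), with 95% Poisson intervals. Regulatory T-like sub-cluster 12 was highest for Il2ra at 973, NK-like sub-cluster 8 for Il2rb at 1363 and gamma-delta T-like sub-cluster 13 for Il7r at 992.

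Il7r, the alpha chain of the interleukin 7 receptor, was found in T cells and in part of the macrophage-like cells. Gamma-delta T-like cells, named from markers that included Trdc, Tcrg-C1, Tcrg-C2, Tcrg-C4 and Cd163l1, held 992 CPM (873 to 1122) in 48 cells from all 4 libraries. Unnamed T/NK-like sub-cluster 5, with 146 of its 148 cells from library 2, held 691 CPM. Naive T-like cells held 595 CPM (490 to 717) and regulatory T-like cells 594 CPM (529 to 664). The last 2 had overlapping intervals. In regulatory T-like cells an Il7r UMI was found in 75.4% of cells, while the cells gated on Foxp3 and Cd3 UMIs held 269 CPM, so the level depended on how these cells were delimited. With doublets kept it was 58.8 CPM and without library 3 57.7 CPM.

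CD4 T-like cells held 92.7 CPM (83.2 to 103), CD8 T-like cells 70.6 CPM (66.3 to 75.2) and NK-like cells 13.8 CPM. The CD8 T-like sub-clusters held 256 CPM in sub-cluster 2, 43.5 CPM in sub-cluster 1 and 16.9 CPM in sub-cluster 4, which is the reverse of their order for Ifng, at 67.8, 1676 and 4758 CPM. CD4 T-like sub-clusters 6 and 9 held 158 and 57.7 CPM. Over the CD8 T-like sub-clusters, and over both CD4 T-like sub-clusters, Il7r ran in the opposite order to Il2ra. T/NK-like cells of libraries 1 to 4 held 177, 630, 266 and 86.3 CPM, with library 4 lowest.

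Macrophage-like cells contributed 47.2% of Il7r UMIs and T/NK-like cells 42.7%, beside 29.8% and 5.97% of all UMIs. Their levels were 25.1 and 113 CPM. The dendritic-like and mature dendritic-like cells within the macrophage-like class held 3.05% and 1.33% of Il7r UMIs. Macrophage-like cells held 39.2, 86.3, 28.1 and 13.4 CPM in libraries 1 to 4. Myeloid sub-cluster 5, with Arg1, Chil3 and Ccl24 among its leading genes and 728 of its 740 cells from library 2, held 99.2 CPM (93.7 to 105), and Cd3d, Cd3e and Cd3g summed to 0.623 CPM in the macrophage-like cells of library 2 without a finer name. Sub-cluster 10, led by Gpnmb and Slc40a1 and from libraries 1 and 3, held 64.0 CPM. Infiltrating monocyte- or macrophage-like cells held 2.82 CPM and resident macrophage-like cells 8.87 CPM. Dendritic-like cells held 52.9 CPM (45.9 to 60.6) and mature dendritic-like cells 46.2 CPM (37.1 to 56.7), with overlapping intervals.

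Il15ra, which binds interleukin 15 and presents it to other cells, was highest in myeloid cells of library 4. Macrophage-like cells held 6.15, 6.82, 5.04 and 81.3 CPM in libraries 1 to 4, with an interval of 79.5 to 83.2 in library 4, and 60.7% of cells of library 4 had an Il15ra UMI against 6.74%, 8.08% and 5.95% in libraries 1 to 3. After thinning the shares were 8.56% in library 4 and 1.21%, 1.02% and 0.179% in libraries 1 to 3. Libraries 1 to 3 lay close to each other and library 4 stood apart. Infiltrating monocyte- or macrophage-like cells, all 678 from library 4, held 78.4 CPM (72.9 to 84.2) and mature dendritic-like cells, 137 of 140 from library 4, held 74.4 CPM (62.8 to 87.5). Unnamed cluster 13 held 85.8 CPM in library 4 against 8.06 and 16.4 CPM in libraries 1 and 3. Dendritic-like cells of libraries 1 and 3 held 2.68 and 4.19 CPM, and resident macrophage-like cells 7.30, 5.59 and 5.43 CPM in libraries 1 to 3.

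Outside myeloid cells Il15ra also differed between libraries. Endothelial-like cells held 19.2, 6.26, 11.9 and 30.7 CPM in libraries 1 to 4, fibroblast-like cells 23.9, 8.15 and 54.6 CPM in libraries 1, 3 and 4, and pericyte-like cells 37.3, 17.7 and 17.7 CPM in libraries 1 to 3. Library 1 was above library 3 in each of these classes. In fibroblast-like cells Il15ra was 26.7 CPM in cluster 9, which held most cells of library 1. It was 9.47 CPM in cluster 4, which held most of library 3, and library and cluster were not separated here. In library 4 Il15ra was 0.142 UMIs per C1q UMI in endothelial-like cells and 0.138 in fibroblast-like cells. This ratio was 0.0119 in macrophage-like cells as a whole, 0.0632 in infiltrating and 0.0855 in mature dendritic-like cells of that library. It was 0.0814 in unnamed cluster 20, 0.0536 in unnamed cluster 13 and 0.0778 in T/NK-like cells. The part of leukocyte transcripts in the endothelial-like and fibroblast-like levels was not tested. T/NK-like cells held 10.9, 6.66, 12.5 and 14.9 CPM. Il15 and Il15ra were found together in 69 of 678 infiltrating cells, 10.2%, where the product of their shares was 9.41%, within the interval of 8.0 to 12.7%. In the macrophage-like cells without a finer name they were found together in 10.1% (9.38 to 10.9) against a product of 7.69%, in endothelial-like cells in 2.43% (2.16 to 2.73) against 1.30%, and in fibroblast-like cells in 4.61% (4.04 to 5.25) against 3.26%, and in these 3 classes, each of which pools libraries and cells of unequal depth, the product lay below the interval.

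**Figure D5:**
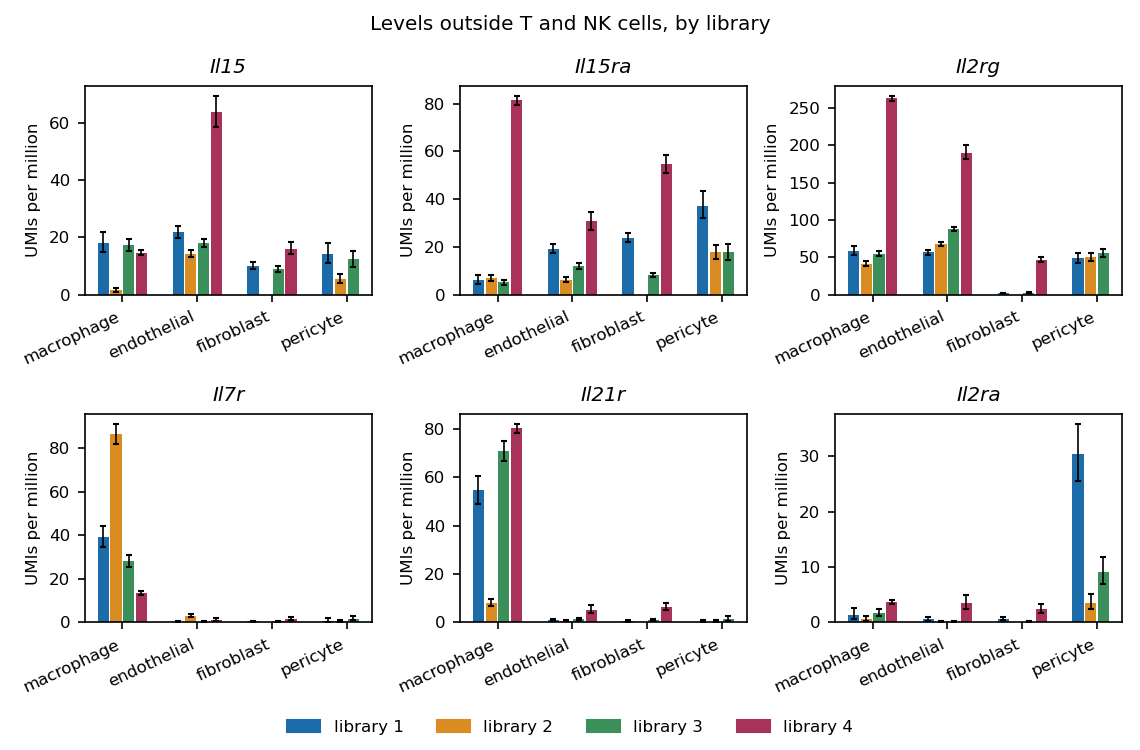
Levels of selected genes (CPM, bars from 0) by library in cell classes with at least 50 cells in that library, with 95% Poisson intervals as lines. Il15ra and Il2rg in macrophage-like cells were highest in library 4, at 81.3 and 263, and Il15 in endothelial-like cells was highest there at 63.9.

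Il21r, the private chain of the interleukin 21 receptor, was found across lymphocytes, dendritic-like and macrophage-like cells. Among named classes of at least 50 cells, mature dendritic-like cells held 184 CPM (166 to 204), regulatory T-like cells 148 (117 to 186), CD8 T-like cells 114 (108 to 119), CD4 T-like cells 110 (99.7 to 121), B-like cells 91.96 (76.7 to 109) and NK-like cells 83.5 CPM (75.4 to 92.2). Each class in this order had an interval that overlapped that of the class before it at these settings. Such overlap does not show that neighbours were equal, and their differences were not tested. With 20 components, at least 500 genes per cell, gating, resolution 1.6 or library 2 left out, the mature dendritic-like cells were 72 to 85 in number and held 338 to 380 CPM, above the interval given here for regulatory T-like cells. Dendritic-like and resident macrophage-like cells both held 71.1 CPM. Naive T-like cells, 41 in number and so not in this order, held 0.312% of Il21r UMIs beside 0.0438% of all UMIs. For mature dendritic-like cells these shares were 2.80% and 0.458%.

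NK-like cells held 116 CPM of Il21r in library 1 and 69.7 CPM in library 4. Macrophage-like cells held 54.6, 7.96, 70.7 and 80.2 CPM in libraries 1 to 4 and contributed 68.4% of Il21r UMIs, beside 29.8% of all UMIs. The low value was that of library 2, where the Arg1 sub-cluster 5 held 3.79 CPM, the same sub-cluster that held 99.2 CPM of Il7r. Resident macrophage-like cells of library 2 held 27.9 CPM against 74.2 and 81.1 CPM in libraries 1 and 3. Endothelial-like cells held 0.742, 0.631, 1.21 and 5.27 CPM, and T/NK-like cells 148, 124, 174 and 106 CPM.

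To set the members against all genes, levels of pairs of classes were compared as log2 ratios with 10 CPM added to both, for genes with at least 10 CPM in either class. In T/NK-like cells against all other cells 9639 genes were compared, of which 9.31% were at least 2-fold higher and 22.6% at least 2-fold lower. Of the 7 members past the filter 4 were higher, Il2rb by 5.38, Il2ra by 3.75, Il7r by 2.65 and Il21r by 1.80 on the log2 scale, and 1 was lower, Il15 at -1.01. Il2rg at 0.94 and Il15ra at -0.74 were within 2-fold, and Il2 and Il7 did not pass the filter. The median of the 7 was 1.80, and that of all genes compared -0.07. Il2ra, Il2rb and Il7r reached 10 CPM in T/NK-like cells only, and Il15 in the other cells only. A gene that passes the filter through 1 class is moved towards a call in that direction, so these counts and medians are descriptions.

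In macrophage-like against endothelial-like cells 9028 genes were compared, 12.4% higher and 20.1% lower. Of 5 members past the filter 4 were higher, Il21r by 2.82, Il7r by 1.64, Il15ra by 1.58 and Il2rg by 1.19, and 0 were lower, with Il15 at -0.41. The median of the 5 was 1.58 against -0.26 for all genes compared. Il21r and Il7r passed the filter through macrophage-like cells only, so the same limit holds here. NK-like against CD8 T-like cells gave 4.07% of 7885 genes higher and 3.4% lower. Of 6 members past the filter Il2rb was higher at 1.46, and Il2ra at -3.38 and Il7r at -1.76 were lower. Of these, Il2ra passed the filter through CD8 T-like cells only. Regulatory T-like against CD4 T-like cells gave 5.88% of 8066 genes higher and 3.43% lower, and of 6 members Il7r was higher at 2.56 and Il2ra at 2.24, and 0 were lower. These values rest on 65 regulatory T-like cells, and the Il7r levels of 58.8 CPM with doublets kept and 57.7 CPM without library 3 lay below the 92.7 CPM given above for CD4 T-like cells, so that its direction depended on which cells took the name. The Il2ra levels under the same settings, 292 and 277 CPM, lay less than 2-fold above the 197 CPM of CD4 T-like cells. With a coarser second clustering Il2ra was 145 CPM, below that value, so its call also depended on which cells took the name.

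The other genes of the pathway were counted over a list of 21. In T/NK-like against other cells 16 passed the filter. Of these, 3 were at least 2-fold higher (Stat5a, Cish and Bcl2), beside 9.31% of all genes compared. Another 4 were lower (Il13ra1, Socs2, Socs3 and Mcl1), beside 22.6% of all genes. The median of the 16 was -0.16 on the log2 scale, near the -0.07 of all genes. Among the cytokines, Il9 was at 0 in every class, and Il21 was found in CD4 T-like cells at 26.3 CPM, while regulatory T-like cells had 0 UMIs of it, which allowed up to 5.86 CPM. Tslp, which acts through Il7r and Crlf2, held 21.8 CPM in fibroblast-like and 21.4 CPM in pericyte-like cells. Its partner chain Crlf2 was 320 CPM in regulatory T-like cells, where Il7r was 594 CPM, and 136 CPM in CD4 T-like cells.

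Among signalling genes, Jak3, the kinase bound by the gamma chain, held 70.3 CPM in regulatory T-like, 49.97 in CD4 T-like, 41.5 in NK-like and 40.2 CPM in endothelial-like cells, the last being a vessel class that also held Il2rg. Jak1 was 464 CPM in NK-like cells. Cish, a feedback inhibitor induced by Stat5, was 260 CPM in regulatory T-like and 120 CPM in CD4 T-like cells, and Socs2 was 207 and 56.7 CPM. In regulatory T-like against CD4 T-like cells 5 of 16 pathway genes past the filter were higher, beside 5.88% of all genes compared. They were Il4ra, Crlf2, Cish, Socs2 and Pim1. Il21 was the 1 lower gene, beside 3.43% of all genes. These calls rest on the same 65 regulatory T-like cells. They were not recomputed under the settings in which other cells took that name, so their stability is not known. Bcl2, a survival gene, was 275 CPM in NK-like and 78.9 CPM in CD8 T-like cells and was the only pathway gene of 15 past 2-fold in that comparison. Of all genes compared there, 4.07% were higher and 3.4% lower. In macrophage-like against endothelial-like cells 2 of 16 pathway genes were higher, Il13ra1 and Pim1, beside 12.4% of all genes compared. Socs2 was the 1 lower gene, beside 20.1% of all genes, so the list did not exceed all genes in either direction.

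The genes whose levels followed those of a member most closely were named by Pearson correlation of log2(CPM + 10) over 55 groups of a class in a library, among 8156 genes with at least 50 CPM in any group. These groups share libraries and depth, and the values are descriptions. Il2rb was followed by Sh2d2a (0.98), Sh2d1a (0.98) and Nkg7 (0.98), and Il2ra by Tnfrsf4 (0.93), Pdcd1 (0.90) and Izumo1r (0.90). Il7 was followed by Pkhd1l1 (0.97), Tc2n (0.96) and Tbx1 (0.96), and Il21r by Runx3 (0.93), Cd48 (0.91) and Epsti1 (0.91). Il2rg ran with H2-Q7 (0.89), Apobec3 (0.87) and Crybg1 (0.86), Il7r with Galnt6 (0.86), Kcnn4 (0.85) and Grap2 (0.85), and Il15ra with the guanylate-binding proteins Gbp5 (0.84) and Gbp2 (0.80) and with Batf2 (0.81). The closest genes of Il2, with Calca at 0.75, Tcrg-C2 at 0.68 and Flt3l at 0.65, and of Il15, with Gm5617 at 0.72, Sh3glb1 at 0.69 and Optn at 0.65, were less alike than those of the receptors.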

How the data were processed

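Single-cell 3′ libraries (10x Genomics, kit version 3) of 4 grafts were aligned by the authors with Cell Ranger 3.0.0 to mm10 with Ensembl 92, and the UMI counts per gene and cell were deposited as a single merged matrix without normalization. No file, label or text used here ties a barcode suffix to a graft, so all cells were 1 pooled sample, and no test, mean or SD over samples was computed.

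Following the methods of the study, cells with over 200 genes and under 20% mitochondrial UMIs were kept, mitochondrial genes were removed and the 5% of cells nearest to simulated doublets were left out. The 2000 most variable genes, without the members and the 21 other pathway genes, were reduced to 10 principal components, and a graph of 30 neighbours was clustered by the Leiden method at resolution 0.8. T/NK-like and myeloid cells were clustered again with 20 components at resolution 1.0, settings chosen after the data were seen. A cluster was named where at least 3 markers of a class were found in 10% of its cells and at least 2-fold above other clusters, with 10 CPM added. A cluster of low depth whose 10 leading genes held no such marker stayed unnamed. So did a cluster whose 10 leading genes held more markers of another class, as in T/NK-like sub-clusters 5 and 7. In T/NK-like sub-clusters, Cd3d and Cd3e were set against the clusters outside T/NK-like cells and not against the other sub-clusters. CD4 T-like sub-cluster 9 was named in this way from Cd4, Cd3d and Cd3e.

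Levels (CPM, UMIs per 1000000) have exact Poisson and shares exact Clopper-Pearson 95% intervals, and a count of 0 is given the limit of 3 counts. Fold comparisons added 10 CPM and used genes with at least 10 CPM in either class. Groups of a class in a library with under 50 cells were left out. Total UMIs ranged from 96020294 to 166079145 per library.

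All 9 members are named, pathway genes only where a class held at least 10 CPM or where a 0 is reported, and the 3 genes most like each member by correlation. The members, gene lists and markers were chosen with earlier results of these data known. Gene positions are those of GENCODE M21 on GRCm38, and promoter sequences those of RefSeq. Clustering used leidenalg 0.10.2 with igraph 0.11.9, neighbours came from scikit-learn 1.9.0, principal components from numpy 2.4.6 and intervals from scipy 1.17.1. Tables and plots came from pandas 2.3.3 and matplotlib 3.10.9 under Python 3.11.15. The fold rule and the Poisson intervals were tested on simulated counts, and the doublet step, clustering, naming, thinning, co-detection and correlations were not. The alternatives tried were other resolutions and numbers of components, doublets kept, at least 500 genes per cell, thinning to 1000 UMIs, cells gated by marker UMIs, no filter on low genes, 1 CPM added in place of 10, and each library left out.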

Additional observations from a re-analysis of the deposited data

Results flagged for a closer look

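For each gene with at least 20 UMIs in endothelial-like, macrophage-like or T/NK-like cells, the highest and the lowest of the 4 libraries were compared with the nearest other library, as a share of the whole range. This share passed Dixon's 95% critical value for 4 samples in 8 of 26 sets of 4 libraries. That value assumes 4 replicates, and all sets reuse the same 4 libraries. It served as a mark for a closer look and not as a test, and no rate by chance can be given. The 4 libraries hold both kinds of graft in an unknown arrangement, so a library that stands apart is not a replicate that failed.

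In macrophage-like cells, library 4 was high for Il15ra with 81.3 CPM against 5.04 to 6.82 CPM in the other libraries, for Il2rg with 263 CPM against 40.9 to 58.4 CPM, and for Il2rb with 7.2 CPM against 0.268 to 0.769 CPM. In endothelial-like cells, library 4 was high for Il15 with 63.9 CPM against 14.3 to 21.8 CPM, for Il21r with 5.27 CPM against 0.631 to 1.21 CPM, for Il2ra with 3.48 CPM against 0.0574 to 0.567 CPM, and for Il2rb with 7.79 CPM against 0.173 to 0.916 CPM. Cd3d, Cd3e and Cd3g summed to 22.8 CPM in the endothelial-like and 19.4 CPM in the macrophage-like cells of library 4, against at most 2.93 and 3.08 CPM in the other libraries, and their part in the Il2ra and Il2rb values was not tested. For Il2 in endothelial-like cells library 2 was the low value, with 4.02 CPM against 4.54 to 4.59 CPM in the others, a gap smaller than the counting intervals of these levels.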

How the results depend on the processing

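No paired analysis was possible because no library could be assigned to a graft and no test was made. The level of each gene in its class of highest level was recomputed under every alternative. Il2ra, Il2rg and Il7r in regulatory T-like cells (973, 336 and 594 CPM) depended most on which cells took that name: with doublets kept they were 292, 127 and 58.8 CPM, and, among alternatives chosen after the data were seen, 145, 266 and 261 CPM with a coarser second clustering and 754, 226 and 269 CPM in cells gated on Foxp3 and Cd3 UMIs. With libraries left out in turn they ranged over 277 to 1051, 124 to 338 and 57.7 to 600.4 CPM, lowest without library 3, and thinning gave 1200.0, 415 and 938 CPM. Il7r was 667 CPM with 20 components. Il2 in the same cells (9.77 CPM) was 0.0 CPM after thinning and 6.45 to 11.6 CPM with libraries left out.

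Il15 in cardiomyocyte-like cells (102 CPM) was 83.9 CPM with 20 components, 82.2 with at least 500 genes, 58.5 in gated cells, 73.8 with doublets kept, 76.9 and 81.7 at resolutions 0.4 and 1.6, and 30.7 to 93.0 with libraries left out, lowest without library 1. Il21r in mature dendritic-like cells (184 CPM) was 375, 369, 338 and 380 CPM with 20 components, at least 500 genes, gating and resolution 1.6, which left 72 to 85 cells, 271 CPM after thinning, and 165 to 379 CPM with libraries left out. Il7 in lymphatic endothelial-like cells (57.4 CPM) was 30.8 with 20 components, 85.8 in gated cells, 30.4 at resolution 0.4, and 23.4 to 56.6 with libraries left out, under 25 without library 1 or library 3. Il15ra in infiltrating cells (78.4 CPM) was 66.2 in gated and 67.8 CPM in thinned cells, and 5.48 to 78.3 CPM with libraries left out, the lowest without library 4. Il2rb in NK-like cells (1131 CPM) was 1234 in gated and 1228 in thinned cells, and 1081 to 1327 CPM with libraries left out. The share of genes over 2-fold in T/NK-like cells (9.31%) was 3.82% without the filter, which adds genes of low level, and 13.2% with 1 CPM added in place of 10. Except for the settings named, the cause of these shifts was not tested.

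The gate planned for regulatory T-like cells, unlike the one on Foxp3 and Cd3 UMIs, left 34 cells, under the minimum of 50, and gave no value. No cluster took the name of regulatory T-like cells without library 4, or of mature dendritic-like cells without library 1 or 3. Depth limits Il2, Il7 and Il15, of which most cells held no UMI.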
